A study of Rattus norvegicus with 10 samples.

Results

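The genes described here encode the orexin, melanin-concentrating hormone (MCH), CART and histamine systems of the lateral and posterior hypothalamus: Hcrt, Hcrtr1, Hcrtr2, Pmch, Mchr1, Cartpt, Hdc, Hrh1, Hrh2 and Hrh3. They were chosen by symbol, and all 10 genes were on the array, with 13 single-gene probe sets among 31042 tested. The tissue was the brain right of the midline, from 10 male Wistar rats aged 7 weeks, with 1 Affymetrix array per rat. The 5 control rats breathed vapor over 5 mL of distilled water for 5 min, and the 5 DMHF rats breathed vapor over 5 mL of DMHF, a dimethylated hydroxyfuranone that smells of strawberry and caramel. All rats were killed after a further 10 min, all inhaled before the dark period, and all ate chow freely. The titles call the arrays biological replicates. The comparison asks which of these transcripts differed shortly after the odor.

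Orexin neurons of the lateral hypothalamus release orexin A and orexin B, both cut from the Hcrt precursor, and keep animals awake and foraging through the receptors encoded by Hcrtr1 and Hcrtr2. Neighbouring neurons make MCH from the Pmch precursor, which acts on Mchr1, promotes feeding and is tied to sleep. CART peptides from Cartpt restrain feeding and are made in several hypothalamic cell groups, including many MCH neurons. Histamine is made from histidine by Hdc in tuberomammillary neurons of the posterior hypothalamus. It acts through excitatory H1 and H2 receptors and through the H3 receptor, which also sits on histamine neurons and limits release. Mast cells are a further source of Hdc. Side by side in these cell groups lie transmitters of wakefulness, sleep, hunger and satiety.

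Values are the authors' deposited log2 values, in which higher was taken as more RNA. Differences between arrays on this scale were tiny: across the 10 arrays the typical (median) probe set had an SD of 2.20 millionths of a log2 unit. Each rat is therefore given as its distance from the mean of the 5 control rats, in millionths of a log2 unit. Such a distance is no fold change of RNA, and as an amount it compares rats for 1 probe set, not probe sets with each other. To set probe sets side by side, a difference is divided by the SD between rats of a group, pooled over both groups. The tests are limma's moderated test over all 31042 probe sets, adjusted by Benjamini and Hochberg's method and called under 0.05, and an exact two-sided permutation test over all assignments of the rats to groups of 5, whose smallest possible p is 0.00794. In tissue this large, fewer cells of a type and less RNA per cell cannot be told apart. The labelled tissue showed its markers: Rbfox3 of neurons averaged 11.54 on the deposited scale, Mbp of oligodendrocytes 13.79 and Aqp4 of astrocytes 12.02, where the median of an array was 7.24. Of the 13 probe sets, 4 (Pmch, Cartpt and both of Hrh3) were in the brighter 15521, with means from 7.90 to 9.39, and the other 9 had means from 5.82 to 7.15. Whether the dimmer ones measure a brain transcript was not tested.

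None of the 13 probe sets passed the test. Their limma adjusted p ran from 0.868 to 0.9996, and over all probe sets 0 of 31042 (0.0%) passed, with a smallest adjusted p of 0.698. At an unadjusted limma p under 0.05, 2 of the 13, Hdc and Hcrtr1, were listed as higher in DMHF and 0 as lower, where 3.23% and 2.25% of all probe sets were listed (1002 higher and 698 lower, 5.48% in all). That split changed with the scaling: of 31042 probe sets, a common array median gave 208 higher and 333 lower. Quantile normalization gave 450 and 154, but of 10076 probe sets. It left the others with no difference between any arrays. Whether either scaling suits values this close together was not tested. The difference was positive for 10 of the 13 and negative for 3, against 53.2% positive over all probe sets. It was positive for 9 of 13 with a common array median and for 5 of the 7 left by quantile normalization. It exceeded 1 SD between rats for 5 of the 13, all positive, against 9.26% of all probe sets above 1 SD and 6.93% below -1 SD. These 5 were the transmitter genes Hcrt, Pmch and Cartpt, the histamine enzyme Hdc and the orexin receptor gene Hcrtr1. For 0 of the 13 did the groups separate, where 0.535% of all probe sets had every DMHF rat above every control rat and 0.332% every DMHF rat below.

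**Figure D1:**
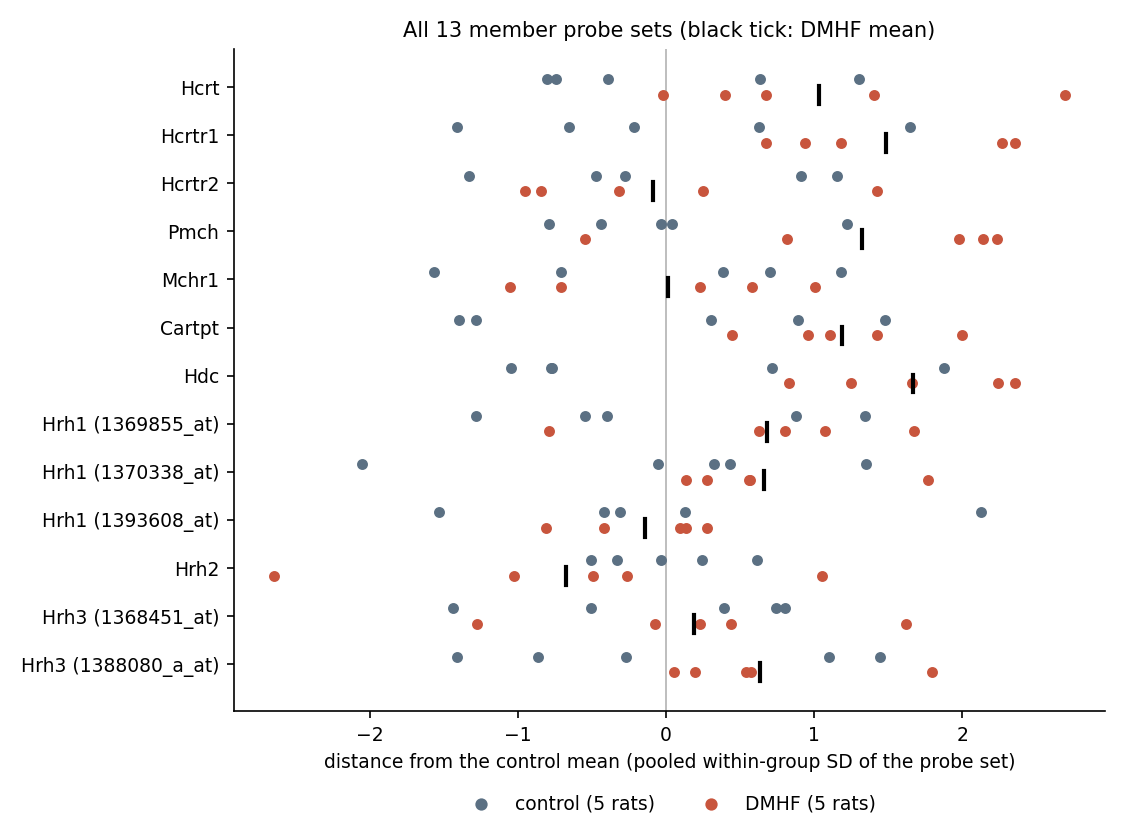
Distance of each rat from the control mean (x axis, in pooled within-group SD of the probe set) for the 13 probe sets (rows), with 5 control rats (grey-blue) and 5 DMHF rats (red) per probe set and a black tick at the DMHF mean. Hdc, Hcrtr1, Pmch, Cartpt and Hcrt have means between 1.03 and 1.67 SD, the other 8 lie between -0.68 and 0.68 SD, and the rats of both groups overlap for every probe set.

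The orexin precursor Hcrt was the first transmitter gene examined. In control replicates 1 to 5 Hcrt stood at -48.1, -23.4, 37.9, 78.1 and -44.5 millionths of a log2 unit from the control mean. In DMHF replicates 1 to 5 it stood at 161, 23.7, 40.6, 84.0 and -1.06. DMHF replicates 1 and 4 lay above all control rats, the other 3 fell among them, and DMHF rats were higher in 20 of 25 pairings of a DMHF with a control rat. The difference was 61.7 millionths (SE 36.0, 95% interval -19.9 to 143), or 1.03 SD, with a limma unadjusted p of 0.121 (adjusted 0.950) and an exact p of 0.143. Without DMHF replicate 1, the highest rat, it was 36.8.

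Of the orexin receptors, Hcrtr1, the receptor that prefers orexin A, stood at 2.21, 5.78, -2.29, -0.75 and -4.95 millionths in control replicates 1 to 5. In DMHF replicates 1 to 5 it stood at 4.15, 8.27, 2.36, 3.29 and 7.95. Every DMHF rat lay above the control mean, which held for 7.91% of all probe sets, and DMHF replicates 2 and 5 lay above all controls. The difference was 5.204 millionths (SE 2.12, 95% interval 0.396 to 10.0), or 1.48 SD, with a limma unadjusted p of 0.0369 (adjusted 0.876) and an exact p of 0.0556. With arrays left out in turn the unadjusted limma p ran from 0.00665 to 0.0838 and was under 0.05 in 4 of 10 fits. Hcrtr2, the receptor whose loss causes narcolepsy in dogs and which histamine neurons carry, ran from -18.5 to 16.1 in control rats and from -13.3 to 19.9 in DMHF rats. Its groups covered nearly the same range, and its difference was -1.23 millionths (SE 8.39), or -0.09 SD. The receptors' differences were not tested against each other.

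Pmch, the MCH precursor, differed widely between single rats. In control replicates 1 to 5 Pmch stood at -7.65, -100, 9.95, 279 and -181 millionths from the control mean. In DMHF replicates 1 to 5 it stood at 511, 489, 187, 451 and -125. DMHF replicates 1, 2 and 4 lay above all control rats, while DMHF replicate 5 lay below 4 of the 5. The difference was 303 millionths (SE 137, 95% interval -9.21 to 614), or 1.32 SD, with a limma unadjusted p of 0.0557 (adjusted 0.931) and an exact p of 0.0794. Quantile normalization left Pmch with no difference between any arrays. Mchr1, the MCH receptor of rodents, had groups that overlapped: control rats ran from -1.86 to 1.41 millionths and DMHF rats from -1.25 to 1.19. Its difference was 0.0132 millionths (SE 0.746), or 0.01 SD, with a 95% interval of -1.68 to 1.71. The differences of Pmch and Mchr1 were not tested against each other.

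Cartpt, the CART precursor, had the largest SD between rats of the members on the deposited scale. In control replicates 1 to 5 Cartpt stood at 1137, 685, -1071, 234 and -984 millionths from the control mean. In DMHF replicates 1 to 5 it stood at 1092, 1533, 738, 847 and 344. Control replicates 3 and 5 lay far below the other 3, while every DMHF rat lay above the control mean and only replicate 2 lay above all controls. The control rats had an SD of 991 and the DMHF rats one of 440. The difference was 911 millionths (SE 461, 95% interval -136 to 1958), or 1.19 SD, with a limma unadjusted p of 0.0805 (adjusted 0.931) and an exact p of 0.103. Ranked over all probe sets by the deposited numbers, the SD over the 10 arrays put Cartpt at percentile 99.9, Pmch at 99.6 and Hcrt at 98.6. Hdc lay at 76.5, Hcrtr1 at 72.4 and Mchr1 at 28.3. These ranks describe the deposited numbers and do not compare the genes in amount of RNA.

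**Figure D2:**
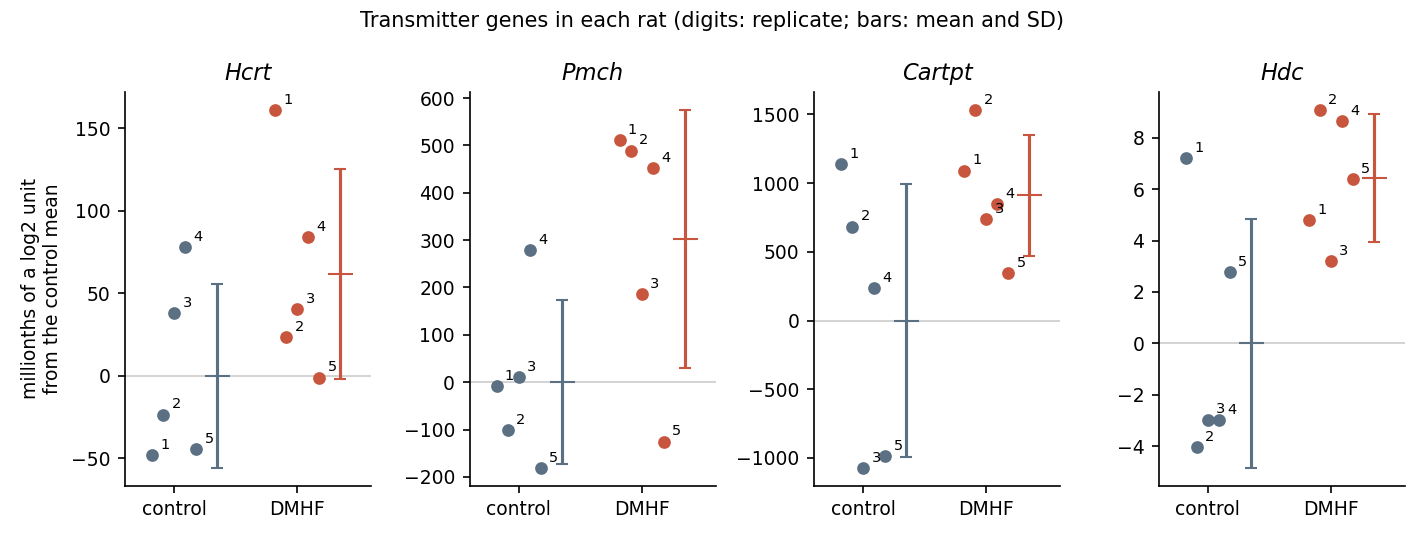
Distance from the control mean in millionths of a log2 unit (y axis, a scale of its own for each gene) for Hcrt, Pmch, Cartpt and Hdc in 5 control and 5 DMHF rats, with the replicate number beside each point and bars for the mean and SD of each group. The DMHF means stand at 61.7, 303, 911 and 6.43, in that order, and in each panel some DMHF rats fall within the range of the control rats.

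Hdc, the enzyme that makes histamine, had the smallest p of the members with all arrays and no rescaling. In control replicates 1 to 5 Hdc stood at 7.22, -4.03, -2.97, -2.99 and 2.77 millionths from the control mean. In DMHF replicates 1 to 5 it stood at 4.81, 9.09, 3.20, 8.64 and 6.40. All 5 DMHF rats lay above 4 of the 5 control rats, and control replicate 1 alone reached into their range. The difference was 6.43 millionths (SE 2.33, 95% interval 1.15 to 11.7), or 1.67 SD, with a limma unadjusted p of 0.0224 (adjusted 0.868) and an exact p of 0.0476. Without control replicate 1 it was 8.23 millionths (limma unadjusted p = 0.00173, adjusted p = 0.888). Without control replicate 2, 3 or 4 or DMHF replicate 2 or 4, in contrast, the unadjusted limma p was between 0.0512 and 0.0537. It was 0.107 with a common array median, where Hcrtr1 (0.0350) and Pmch (0.0378) had smaller values, and 0.227 after quantile normalization (3.36 millionths) and 0.0556 with the replicate number as a block.

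The histamine receptors gave smaller differences. Hrh1, the excitatory H1 receptor that sedating antihistamines block, had 3 probe sets, at 0.287 (SE 0.331), 0.684 (SE 0.658) and -0.463 millionths (SE 1.96), or 0.68, 0.66 and -0.14 SD. The last is the brightest of the 3, so the probe sets of Hrh1 differed in sign. The value of 0.684 was 0.153 without control replicate 5 and 0.397 without DMHF replicate 2. Hrh2, the H2 receptor, ran from -3.71 to 4.53 millionths in control rats and from -19.5 to 7.72 in DMHF rats. Its DMHF rats spread more, with an SD of 9.85 against 3.29, and lay on both sides of the control range: replicates 1 and 5 below it and replicate 3 above. Its difference was -4.96 millionths (SE 4.43), or -0.68 SD, and moved to -1.34 without DMHF replicate 1. Hrh3, the H3 receptor, had 2 probe sets, at 4.38 millionths (SE 13.9) and 1.45 (SE 1.40), or 0.19 and 0.63 SD, both with a limma adjusted p of 0.9996. The value of 1.45 was 0.644 without control replicate 1, 0.785 without DMHF replicate 3 and 0.956 without control replicate 5, and 2.28 without control replicate 3.

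Promoter sequences are shown for Hcrt, Cartpt and Hdc. Hcrt and Cartpt had the widest spread between rats on the deposited scale of the members with an entry. Hdc was the member with the smallest p in the fit of all arrays. RefSeq's table for assembly GRCr8 held 7 of the 10 genes, Pmch, Mchr1 and Hrh2 being the others. Each sequence is the 250 bases before the start of the transcript, 5′ to 3′ on the gene's strand (minus for all 3), and capitals mark the motifs searched. Hcrt covers chr10:86191525-86191774, Cartpt chr2:32991236-32991485 and Hdc chr3:134318705-134318954.
Hcrt: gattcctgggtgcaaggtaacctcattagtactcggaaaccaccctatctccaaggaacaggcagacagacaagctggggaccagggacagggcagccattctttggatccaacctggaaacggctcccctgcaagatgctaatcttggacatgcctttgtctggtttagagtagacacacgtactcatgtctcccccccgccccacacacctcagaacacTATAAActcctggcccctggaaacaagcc
Cartpt: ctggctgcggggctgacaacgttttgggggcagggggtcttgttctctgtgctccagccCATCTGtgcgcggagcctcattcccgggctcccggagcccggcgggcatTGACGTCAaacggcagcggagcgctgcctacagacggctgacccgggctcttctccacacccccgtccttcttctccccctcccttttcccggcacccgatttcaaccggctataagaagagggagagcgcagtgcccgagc
Hdc: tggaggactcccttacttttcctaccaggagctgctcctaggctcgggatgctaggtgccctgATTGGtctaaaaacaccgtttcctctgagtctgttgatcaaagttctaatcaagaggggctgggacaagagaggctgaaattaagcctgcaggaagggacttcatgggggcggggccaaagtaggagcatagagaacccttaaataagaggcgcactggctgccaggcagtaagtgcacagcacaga
The motifs were the cyclic AMP response element TGACGTCA, the TATA box TATAAA, the E-box CANNTG and the CCAAT box CCAAT, each on both strands. The full cyclic AMP response element, a site that CREB binds, began 142 bases before the start in Cartpt. It was in 1 of the 7 member promoters and in 1.59% of 33469 promoters. In Hcrt TATAAA began 29 bases before the start, and 12.9% of all promoters held it. CANNTG lay in Cartpt at 191 bases and in 65.5% of all promoters, and CCAAT in Hdc at 187 bases, on the other strand, and in 34.0%. A match describes these letters and shows no binding.

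Rat by rat, Hcrt and Pmch varied together. Over the 10 rats Pearson's r was 0.802 (permutation p = 0.00435, adjusted over 6 pairs 0.0261) and Spearman's rho 0.794 (permutation p = 0.00815, adjusted 0.0489). Within the groups r was 0.852 among control rats and 0.667 among DMHF rats, with 5 rats each and no test. After each group was centred on its own mean, r was 0.725 (permutation p = 0.0170, adjusted 0.102). Without DMHF replicate 1 and control replicate 1, the 2 rats farthest from the median of Hcrt, r was 0.774 over 8 rats (exact permutation p = 0.0296, adjusted 0.178), so the pair then no longer passed. With single rats left out r ran from 0.750 to 0.914, and the pair did not pass without control replicate 2 or 5 or without DMHF replicate 1, 3, 4 or 5 (adjusted permutation p from 0.0521 to 0.149).

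The other 5 pairs of Hcrt, Pmch, Cartpt and Hdc did not pass. Pmch and Cartpt had an r of 0.597 (permutation p = 0.0732, adjusted 0.185) and a rho of 0.564 (adjusted permutation p = 0.196), and Cartpt and Hdc one of 0.558 (permutation p = 0.0923, adjusted 0.185) with a rho of 0.733 (adjusted permutation p = 0.0627). Hcrt and Cartpt had an r of 0.242 and a rho of 0.0788 (permutation p = 0.499 and 0.836, adjusted 0.598 and 0.892). Hcrt and Hdc had 0.0432 and 0.0545 (permutation p = 0.908 and 0.892, adjusted 0.908 and 0.892). Pmch and Hdc had 0.394 and 0.382 (permutation p = 0.252 and 0.280, adjusted 0.378 and 0.420). Without the 2 rats farthest from the median of the gene named first, r for these 5 pairs was 0.395, 0.603, 0.298, 0.117 and 0.194, in the same order. On group-centred values, Cartpt and Hdc fell to 0.296, and Hcrt and Hdc turned to -0.470. With a common array median the r of Cartpt and Hdc was 0.00581 and its rho 0.212.

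The peptide genes were also set against other markers of the hypothalamus. Of 26 listed marker genes other than the members, 17 were measured, 12 with a positive difference and 5 with a negative one, and 0 passed the test. Ranked by p, the list was led by Npvf, the RFamide-related peptide precursor (10.6 millionths, SE 3.91, 1.63 SD, limma adjusted p = 0.868), and Ecel1, a neuronal endopeptidase-like protein (46.3, SE 20.1, 1.38 SD, limma adjusted p = 0.901). The transcription factors of the list, Lhx1, Nr5a1, Nkx2-1, Sim1, Otp, Rax, Six6 and Six3, stood at 0.99, 0.87, 0.38, 0.36, 0.19, 0.14, -0.11 and -0.17 SD. The other peptide precursor genes, Ghrh, Oxt, Trh, Avp, Crh and Pomc, stood at 0.72, 0.69, 0.52, -0.23, -0.37 and -0.45 SD, and Peg10 at 0.21 SD. The mean of the 17 standardised values was -0.0248, -0.0143, -0.252, -0.169 and -0.431 in control replicates 1 to 5. In DMHF replicates 1 to 5 it was 0.353, 0.556, -0.0754, 0.172 and -0.114. DMHF replicates 1, 2 and 4 lay above all control rats in this score, the same rats that did so for Pmch.

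Cartpt followed the hypothalamus score most closely of the 4 genes, with an r of 0.839 over 10 rats (permutation p = 0.00360, adjusted over 4 relations 0.00806) and a rho of 0.891 (adjusted permutation p = 0.00464). Its r was 0.899 among control rats and 0.952 among DMHF rats. It was 0.757 on group-centred values (adjusted permutation p = 0.0478) and 0.849 without the 2 rats farthest from the median of Cartpt (adjusted exact permutation p = 0.0232). Its rho did not pass in either of these settings: 0.745 on group-centred values (adjusted permutation p = 0.0613) and 0.810 without the 2 rats (adjusted exact permutation p = 0.0559). Group-centred values were permuted over all rats with no allowance for the centring, so their p may be too small. Pmch had an r of 0.798 (permutation p = 0.00403, adjusted 0.00806) and a rho of 0.685 (adjusted permutation p = 0.0708). For Pmch r was 0.247 among control rats and 0.841 among DMHF rats, 0.675 on group-centred values (adjusted permutation p = 0.0641), and 0.599 without the 2 farthest rats (adjusted exact permutation p = 0.159), where it no longer passed. With single rats left out the r of Pmch passed each time (0.744 to 0.863, largest adjusted exact permutation p = 0.0392). The rho of Pmch did not pass with all rats. With single rats left out it did not pass in most fits (adjusted exact permutation p from 0.0285 to 0.241). Hcrt (r = 0.467, rho = 0.309, adjusted permutation p = 0.174 and 0.387) and Hdc (r = 0.555, rho = 0.576, adjusted permutation p = 0.127 and 0.116) did not pass. Without the 2 farthest rats their r was 0.309 and 0.646, and with a common array median that of Hdc was 0.150. These 4 relations were added after the values were seen.

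**Figure D3:**
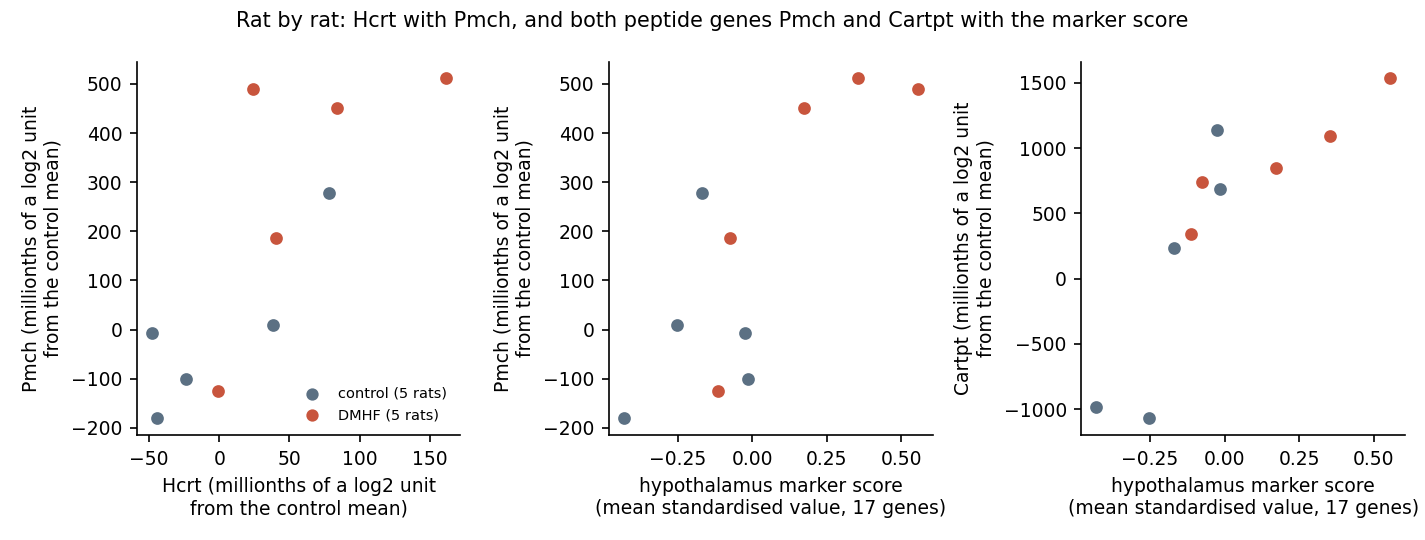
Each point is a rat, 5 control (grey-blue) and 5 DMHF (red). The left panel sets Pmch against Hcrt (both axes in millionths of a log2 unit from the control mean, r = 0.802), and the other panels set Pmch (r = 0.798) and Cartpt (r = 0.839) against the mean standardised value of the 17 hypothalamus markers.

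With the hypothalamus score as a covariate in the fit, the difference between DMHF and control was 29.3 millionths for Cartpt (SE 419) in place of 911, and 68.8 for Pmch (SE 141) in place of 303. It was 2.30 for Hcrtr1 (SE 2.48) where it was 5.204 and 41.9 for Hcrt (SE 48.9) in place of 61.7. Hdc kept more of its value, 5.24 (SE 3.17) in place of 6.43. The score itself lay higher in most DMHF rats, so the covariate and the group share part of what they describe, and the part of hypothalamic content in these differences was not tested. With the score in the fit, 0 of the 13 probe sets had a limma unadjusted p under 0.05, where 1194 of all 31042 did. Without the score it was 2 of the 13 and 1700 of all.

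**Figure D4:**
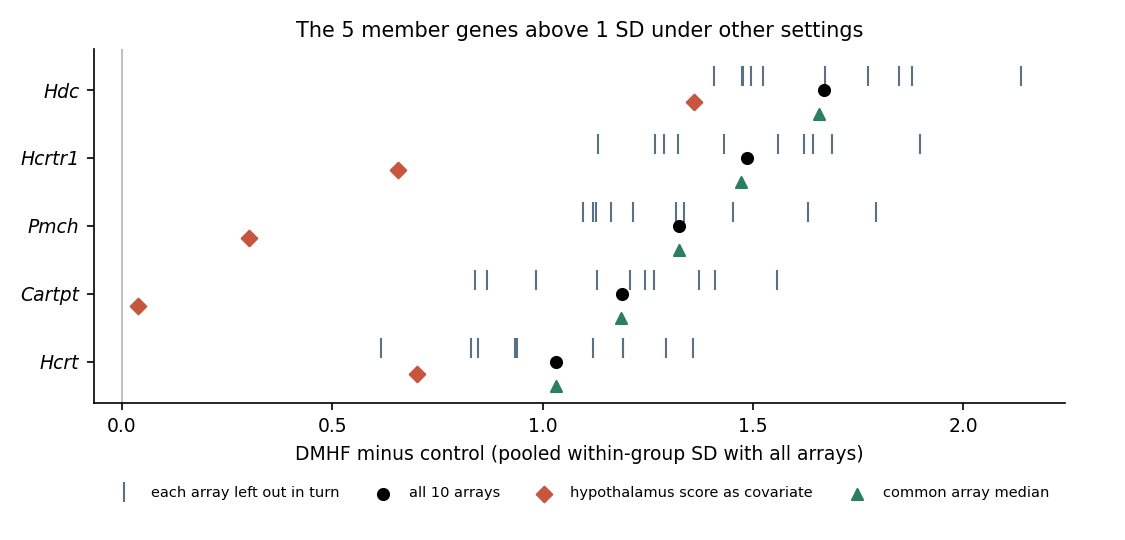
Difference between DMHF and control (x axis, in the pooled within-group SD of the fit with all arrays) for the 5 member genes above 1 SD, with all 10 arrays (black), each array left out in turn (ticks), the hypothalamus score as covariate (red diamonds) and a common array median (green). All values lie above 0, and with the covariate Cartpt stands at 29.3 and Pmch at 68.8 millionths, the values nearest to 0.

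Other tissues next to the hypothalamus were read from the same arrays. The pituitary list had 9 of 9 measured genes with a positive difference, 0 past the test, and scores from -1.20 to 0.131 in control rats and from -0.129 to 0.917 in DMHF rats. Its hormone genes Cga, Tshb, Gh1, Lhb, Fshb and Prl stood at 2.58, 1.98, 1.15, 0.72, 0.13 and 0.04 SD. The mast cell list, which matters for Hdc, had 7 of 8 positive and 0 past the test, with scores from -0.650 to 0.294 in control and from -0.276 to 1.16 in DMHF rats. Its defining proteases Cpa3, Cma1 and Tpsb2 stood at 0.64, 0.89 and 0.70 SD and Tpsab1 at -0.40 SD, and the IgE receptor genes Fcer1a and Ms4a2 at 0.24 and 0.18 SD. The part of either tissue in the member genes' values was not tested.

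The genes that serve these transmitters were counted from lists, beside all 14217 named genes, of which 53.0% had a positive difference and 4.80% an unadjusted limma p under 0.05, with a median of 0.05 SD. The 10 members themselves, each by its brightest probe set, had 7 positive and 3 negative differences and a median of 0.61 SD. In the list for breakdown, storage and further reception of histamine, 4 of 6 measured genes were positive, 0 passed and the median was 0.33 SD. Maob, a monoamine oxidase that acts after histamine is methylated, stood at 5.25 millionths (SE 3.03, 1.04 SD). Hnmt, the methyltransferase that inactivates histamine in brain, stood at -1.09 (SE 1.19, -0.56 SD). Slc22a3, a transporter that takes up histamine, stood at 0.594 (SE 0.636) and Hrh4, the H4 receptor, at 2.29 (SE 3.13).

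In the list for processing of peptide precursors, 6 of 9 measured genes were positive, 0 passed and the median was 0.15 SD. Pcsk1n, which encodes proSAAS, an inhibitor of the convertase that cuts many neuropeptide precursors, stood at 2.81 millionths (SE 0.937, 1.86 SD, limma unadjusted p = 0.0151, adjusted p = 0.868, exact p = 0.0317). Its control rats ran from -1.90 to 2.09 and its DMHF rats from 1.68 to 5.36, with overlap at the edges. Scg2, a granin of dense-core vesicles, stood at 4.64 (SE 3.12). Qpct, the glutaminyl cyclase that closes the first residue of peptides such as orexin A, stood at 3.07 (SE 2.28), and Chgb, a further granin, at -0.546 (SE 0.617).

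Products of neurons in or near the lateral hypothalamus were positive for 5 of 8 measured genes, with 0 past the test and a median of 0.23 SD. Lhx9, a transcription factor linked to orexin neurons, stood at 2.11 millionths (SE 1.19, 1.08 SD), Slc17a6, the vesicular glutamate transporter of subcortical neurons, at 23.1 (SE 20.8), Trh, the thyrotropin-releasing hormone precursor, at 27.0 (SE 31.1) and Gad1, a GABA-synthesising enzyme, at -0.340 (SE 0.314). The G proteins and effectors that the receptors use were positive for 4 of 10, with 0 past the test and a median of -0.40 SD. Gna11, a partner of orexin and H1 receptors, stood at -2.58 (SE 1.15, -1.37 SD, limma adjusted p = 0.926), and Gnao1, an inhibitory G protein of neurons, at -2.45 (SE 1.13, -1.33 SD, limma adjusted p = 0.931). Gnaq, the close relative of Gna11, stood at 22.9 (SE 23.0), and Trpc5, a cation channel, at -1.12 (SE 1.31).

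**Figure D5:**
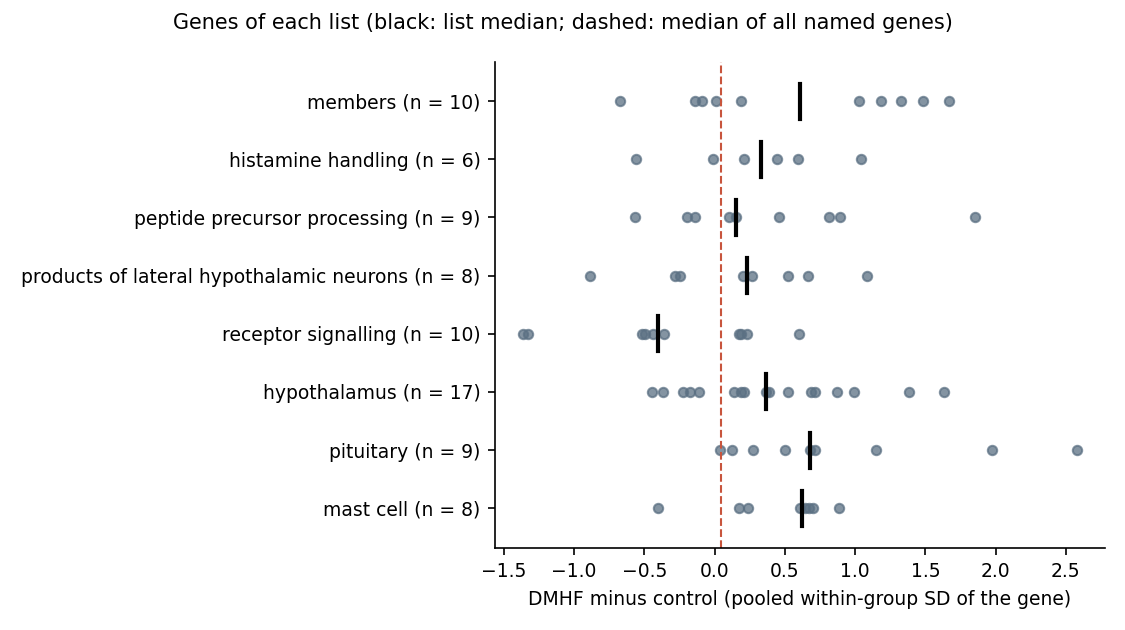
Each point is a gene, placed by the difference between DMHF and control in its own pooled within-group SD (x axis), for the 10 members, the 4 related lists and the hypothalamus, pituitary and mast cell markers. Black ticks mark list medians (0.61 SD for the members, -0.40 SD for receptor signalling), and the dashed line is the median of all named genes at 0.05 SD.

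Likeness to the 4 transmitter genes was ranked over 13982 other named genes by Pearson's r of group-centred values over the 10 arrays, as a description with no test. Nearest to Hcrt were Cndp2 (r = 0.927), Asnsd1 (0.926), Aqp11 (0.918), Ero1a (0.915) and Tubgcp4 (0.914), and Pmch came at rank 232. Nearest to Pmch were Dcaf7 (0.961), Tmem179 (0.950), Hmces (0.939), Lrrc42 (0.921) and Fam209 (0.907), with Hcrt at rank 179. Nearest to Cartpt were Dynlrb2 (0.967), Aurkb (0.960), Amigo2 (0.956), Il7 (0.940) and Scg2 (0.931), the last being the granin of the processing list. Nearest to Hdc were Baz1a (0.918), Casq2 (0.909), Grip1 (0.902), Akr1d1 (0.863) and Slc22a21 (0.856), and Cartpt came at rank 2414. For each of the 4 genes, the lowest r of the 5 genes named was 0.856 or more. These are the highest of 13982 values over 10 arrays, and how high unrelated genes would reach was not tested.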

How the data were processed

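The authors deposited 1 table of processed log2 values per probe set and array. R 2.7.2 was used, per the submitters' processing notes. The sources used here do not name the background correction, normalization or summary method, and the log2 base was taken from the range of the values. Per the labels' protocols, RNA was isolated with ISOGEN II reagent and an RNeasy kit, and biotin was the label. Replicates are the rats of the titles. Of 31099 probe sets, 57 Affymetrix controls were left out. Gene names come from the platform annotation in GEO, and a gene is represented by its probe set of highest mean.

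All 31042 probe sets were fitted with limma 3.58.1 in R 4.3.3 (lmFit, eBayes, 10 arrays, no covariate), and the fit was tested on simulated data. Correlations used 100000 permutations, or all of them under 10 rats. Group-centred values were permuted over all rats, across groups and with no allowance for the centring, so those p may be too small. Named genes were every member probe set, up to 4 genes of smallest p per related list, and the 5 genes most like each of Hcrt, Pmch, Cartpt and Hdc, with symbols starting with LOC or RGD passed over. Other marker genes were chosen after their values were seen. The members and lists were chosen with earlier results of these data known. Alternatives were other normalizations, the replicate number as a block, a filter on dim probe sets, array weights, another variance model, 1 probe set per gene, a covariate and each array left out. The number of arrays limits the precision.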

Additional observations from a re-analysis of the deposited data

Results flagged for a closer look

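Of 26 groups of 5 rats, 13 probe sets in each of 2 groups, 1 held a rat set apart from the other 4 by more than the 95% critical value of Dixon's test (0.71 of the range), and chance gives about 1 in 20. It was the dimmest of the 3 Hrh1 probe sets in DMHF replicate 2, at 1.83 millionths of a log2 unit from the control mean, where the next highest DMHF rat stood at 0.586 and the gap took 0.736 of the range.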

How the results depend on the processing

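No member probe set passed under any of the 18 alternatives, each array left out included. The differences of Hcrt, Pmch, Cartpt, Hdc and Hrh2 kept their sign wherever they had a value, which Pmch and Hrh2 lacked after quantile normalization. The difference of Hcrtr1 kept its sign in all fits that held it but quantile normalization, which gave it no direction. With arrays left out in turn they ran from 36.8 to 81.2 for Hcrt, 3.97 to 6.65 for Hcrtr1, 250 to 409 for Pmch, 643 to 1195 for Cartpt and 5.42 to 8.23 for Hdc. Over all probe sets the count past the threshold was 0 in every fit but 2, which gave 13 after quantile normalization, with 10076 probe sets left to test, and 1 without DMHF replicate 2 (range 0 to 1 with arrays left out). At an unadjusted p under 0.05 it was 1700, with 1002 higher, and 541 with a common array median, with 208 higher. Quantile normalization left 7 member probe sets to test and set the groups' means of Hcrtr1 equal. It left Pmch, Hrh2, both Hrh3 probe sets and all but the dimmest Hrh1 probe set with no difference between any arrays. It turned Hcrtr2 to 41.7 and Mchr1 to -12.5. Mchr1, near 0 throughout, also turned with array weights (-0.138), a common array median (-0.033) and the hypothalamus score as covariate (-0.659), and the dimmest Hrh1 probe set turned with the last (-0.401). With arrays left out, Hcrtr2 ran from -6.50 to 2.80, Mchr1 from -0.452 to 0.365, the brightest Hrh1 probe set from -1.70 to 1.26 and the brighter Hrh3 probe set from -3.89 to 12.8. The correlation of Hcrt with Pmch no longer passed on group-centred values (0.725), without the 2 rats farthest from the median (0.774) and with some arrays left out (0.750 to 0.914). On group-centred values Hcrt with Cartpt (-0.0469), Hcrt with Hdc (-0.470) and Pmch with Hdc (-0.0201) turned, and Hcrt with Hdc ran from -0.130 to 0.189 with arrays left out. The cause was not tested in any of these. Same-numbered rats of the 2 groups had deviations correlated at 0.214, 0.0329, 0.273, 0.0856 and 0.0288, all positive and 3 of them under 0.1. The titles name no pairs, and the numbers were not taken as pairs. The permutation tests exchange rats without regard to the number, so their p make no allowance for pairs if the numbers marked them. As a hint of pairing from the data alone, 6 of 10 arrays were most like their own number among the 5 arrays of the other group. With the replicate block 0 probe sets passed, and 2217 of all 31042 had an unadjusted limma p under 0.05, against 1700 without the block. Of the 13 member probe sets 3 did, where 2 did without the block. These 3 were Cartpt (0.0255, adjusted p = 0.640), Pmch (0.0262, adjusted p = 0.642) and Hcrtr1 (0.0368, adjusted p = 0.666).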

Other observations

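Lists for other brain tissue and cell types gave further values with 0 genes past the test in any of them. Markers of ependyma were positive for 4 of 4 measured genes (median 1.20 SD), of astrocytes for 4 of 5 (0.77 SD), of choroid plexus for 6 of 7 (0.77 SD) and of thalamus for 5 of 6 (0.61 SD). Markers of striatum were positive for 0 of 6 (median -0.46 SD), of oligodendrocytes for 1 of 4 (-0.41 SD) and of endothelium for 1 of 5 (-0.39 SD). Neuron markers were positive for 4 of 6 (0.17 SD) and microglia markers for 3 of 5 (0.21 SD). Gfap, the intermediate filament of astrocytes, stood at 16.1 millionths (SE 6.22, 1.56 SD, limma adjusted p = 0.876), and Kcnj13, a potassium channel of choroid plexus, at -7.66 (SE 3.86, -1.20 SD, limma adjusted p = 0.931).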
